A study of Zea mays with 6 samples.

Results

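The 100 longest expressed genes of maize seedlings, from the F1 hybrid B73×Mo17, were chosen by measured expression and by the distance from annotated start to annotated end, here called the span. All carry a Zm00001d identifier of the B73 gene models. A gene counted as expressed where its abundance was at least 1 FPKM (fragments scaled to transcript length and to the fragments of the library) in both mRNA libraries, which 18695 of the 43789 Zm00001d genes reached, out of 45578 listed entries. The genes were thus selected on span and on mRNA FPKM, and the mRNA values below are given as a description only. The spans ran from 37679 to 93328 bp with a median of 48637.5 bp, against a median of 3582 bp for the other 18595 expressed genes. Of the 163 Zm00001d genes with a span of at least 37679 bp, the other 63 missed the mRNA floor.

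The samples were aerial tissue of hybrid seedlings at the age of 14 days, grown in long days without any treatment, and all libraries share this genotype and stage. They comprise input RNA-seq (mRNA), polysome RNA-seq, and m6A-seq of RNA immunoprecipitated with an antibody against N6-methyladenosine (m6A), with 2 biological replicates each. No parental library was analysed here, so every comparison is between kinds of library or between sets of genes of the hybrid. The tissue label was not checked against leaf markers, since only 153 of the 45578 identifiers, and 0 of the 100 genes, matched the table of gene names used. For the same reason no protein or function is given for any identifier below.

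In maize, a long span is mostly a matter of long introns, which often hold transposable elements, and the spliced transcript is far shorter than the gene. FPKM is scaled to the transcript and not to the span. Polysomes are messenger RNAs carrying several ribosomes, and the polysome to mRNA ratio of a gene, or translational efficiency, is used as a relative measure of how well its mRNA is loaded. m6A is the commonest internal modification of plant mRNA and is known to be densest around stop codons and in 3′ untranslated regions.

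The longest gene was Zm00001d027472, a 93328 bp span on the minus strand at chr1:6068283-6161610 (B73 RefGen_v4). Next came Zm00001d015890 at chr5:129466482-129557572 with 91091 bp and Zm00001d043305 at chr3:195356935-195446434 with 89500 bp. Zm00001d046039, Zm00001d040864, Zm00001d047074, Zm00001d016863, Zm00001d028915, Zm00001d053262, and Zm00001d027665 followed, from 87385 down to 80181 bp. The lower limit cut through a continuous range. Zm00001d037950, Zm00001d005257, and Zm00001d045147 lay just inside it with 37811, 37706, and 37679 bp, and Zm00001d032101, Zm00001d014568, and Zm00001d051507 just outside it with 37553, 37429, and 37045 bp. Chromosome 1 held 21 of the 100 genes, and the other chromosomes held 5 to 14 each except chromosome 8, which held 0. The longest expressed gene of chromosome 8, Zm00001d009270, ranked 109 with 35986 bp. Of the 100 genes, 55 were on the plus and 45 on the minus strand, and 0 pairs of them overlapped.

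The long genes were mostly of low to moderate abundance. Their mRNA FPKM ran from 1.21 to 38.8 with a median of 4.53 in replicate 1, and from 1.07 to 35.3 with a median of 4.31 in replicate 2. Their mean FPKM had a median of 4.28 against 5.70 for the other expressed genes, and 15 of them reached a mean of 10. The replicates differed by less than 1.5-fold for 87 of the 100 genes, and for 92.6% of the other expressed genes. The most abundant, Zm00001d028915, is the eighth longest of all, with an 83747 bp span at chr1:51076671-51160417. It had 38.8 and 35.3 FPKM in the mRNA libraries and 21.3 and 26.4 in the polysome libraries. Zm00001d037346 had 38.6 and 32.6 FPKM as mRNA but 11.1 and 9.87 on polysomes, so the top genes by mRNA were not equally represented among polysomes. Zm00001d023792, Zm00001d017522, and Zm00001d049894 followed with mean mRNA FPKM of 22.5, 20.3, and 18.0. Across the 100 genes span and mean mRNA FPKM had a Spearman rho of -0.07, a description across genes of the same libraries.

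On polysomes the same genes were much less abundant. Polysome FPKM ran from 0.168 to 32.2 with a median of 1.58 in replicate 1, and from 0.0383 to 31.6 with a median of 1.53 in replicate 2. The median of the mean polysome FPKM was 1.49, against 5.05 for the other expressed genes. It was below 1 for 34 of the 100 genes and for 9.86% of the others. The long genes together made up 0.139% of the summed FPKM of expressed genes in each mRNA library, and 0.0388 and 0.0432% in the polysome libraries.

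**Figure D1:**
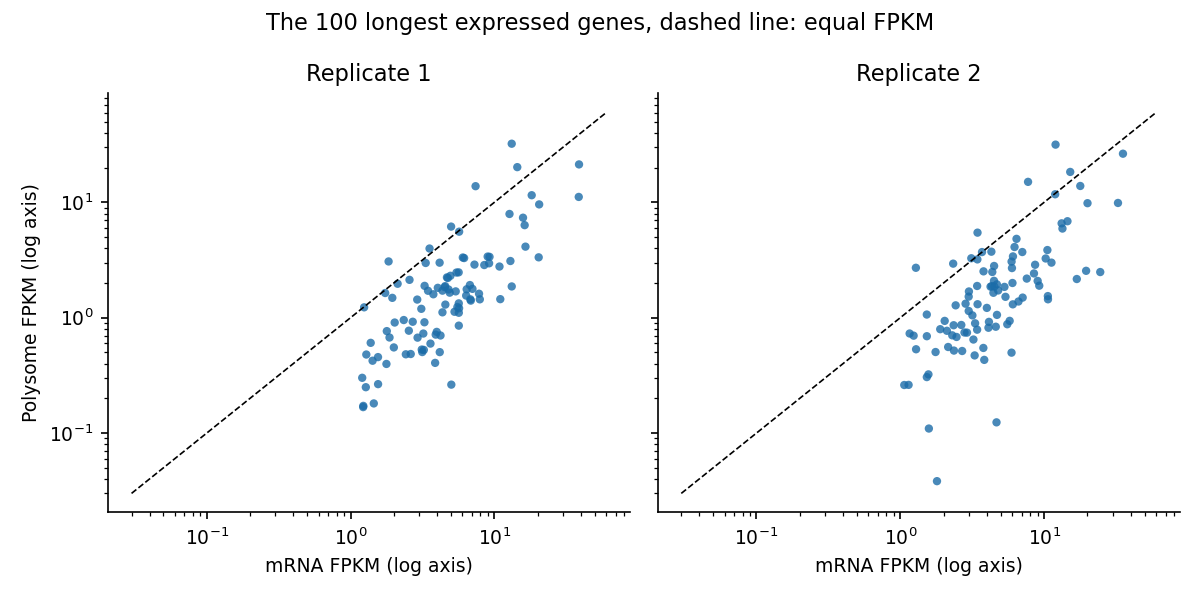
Polysome FPKM (vertical, log axis) against mRNA FPKM (horizontal, log axis) of the 100 longest expressed genes in replicate 1 and replicate 2, 1 point per gene. The dashed line marks equal FPKM, and most points lie below it in both replicates, with 6 genes having a mean ratio above 1.

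The median polysome to mRNA ratio of the 100 genes was 0.318 in replicate 1 and 0.354 in replicate 2. From the mean FPKM of both replicates it was 0.327 ± 0.0256 (SD of the replicate medians, n = 2), with quartiles of 0.232 and 0.493. The other expressed genes had 0.835 and 0.912 in the replicates and 0.869 ± 0.0549 (SD of the replicate medians, n = 2) from the means. The gap between these sets of genes was thus many times the spread between replicates, and the floor of 1 FPKM on mRNA was applied to both. Of the 100 genes, 92 lay below the median of the others, and 53 were among the lowest 10% of all expressed genes (51 by replicate 1 and 49 by replicate 2). In 90 of the 100 genes both polysome values were below both mRNA values, whereas 48.0% of all expressed genes showed this. In 5 genes both polysome values were above both mRNA values (35.8% of all expressed genes), and in 5 the values overlapped. The count of 90 is partly set by the mRNA floor, since 34 of the 100 genes had a mean polysome FPKM under 1. Among the 66 genes with a mean of at least 1, a split chosen after seeing the data, 57 had both polysome values below both mRNA values. The share of all expressed genes at that polysome level was not counted.

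Part of the level of these ratios depends on how the libraries are scaled. Entries with ENSRNA identifiers, annotated non-coding RNA, took 59.6 and 58.9% of the summed FPKM in the mRNA libraries and 24.6 and 25.9% in the polysome libraries. With these entries left out and the rest rescaled, the median ratio was 0.206 for the long genes and 0.548 for the others. After centring each library on its median log2 value, the medians were 0.383 and 1.02. Both steps move nearly all genes of a library by the same factor, so they set the level of a ratio and say nothing of the difference between the sets. Polyadenylated RNA was isolated for the input, and no such step is named for polysome RNA, so RNA selection and translation cannot be told apart in these ratios.

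The ratios were also compared in 4 classes of mean mRNA FPKM. At a mean mRNA FPKM of 1 to 3, the median ratio was 0.315 for the 27 long genes and 0.729 for the others. At 3 to 6 FPKM it was 0.305 (n = 42) and 0.804, and at 6 to 12 FPKM it was 0.327 (n = 18) and 0.912. The 13 long genes with 12 FPKM or more had a median ratio of 0.479, against 1.17. In all 4 classes the long genes therefore had the lower median. Mean mRNA FPKM is also the denominator of the ratio, and its part in the difference was not tested.

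The ratio also stepped down with span outside the 100 genes. Its median was 1.11 for the expressed genes ranked 10001 to 18695 by span, 0.817 for ranks 5001 to 10000, 0.706 for 2001 to 5000, and 0.629 for 1001 to 2000. It was 0.586 for ranks 501 to 1000, 0.514 for 201 to 500, and 0.464 for 101 to 200, the class most like the 100 longest. That neighbouring class had 0.427 and 0.511 in the replicates, above the 0.318 and 0.354 of the 100 longest. Over all 18695 expressed genes the Spearman rho of span and ratio was -0.26 (-0.29 and -0.22 by replicate), while within the 100 genes it was -0.05 (0.05 and -0.15 by replicate). These correlations describe genes that share 4 libraries, and gene length, transcript length, and intron content were not separated in them.

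**Figure D2:**
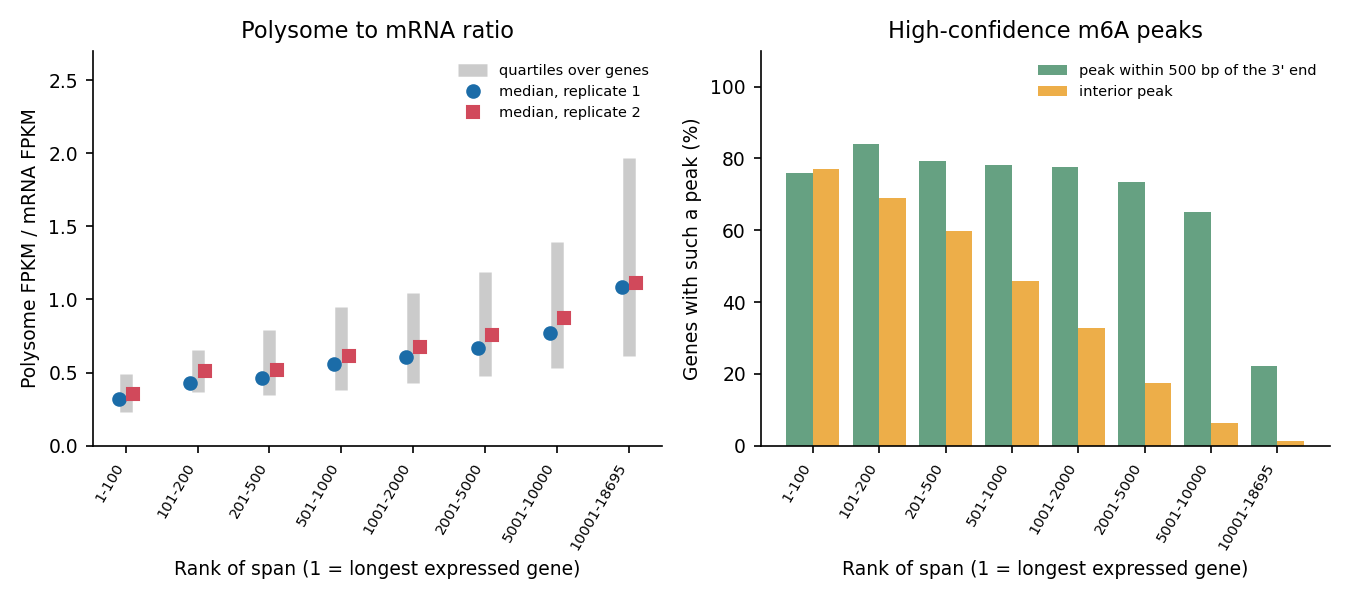
Left, polysome to mRNA ratio by rank of span, with the median in each replicate (symbols) and the quartiles over genes (grey bars); right, percentage of genes with a high-confidence m6A peak within 500 bp of the annotated 3′ end or in the interior. The 100 longest genes have the lowest median ratio in both replicates (0.318 and 0.354) and the largest share with an interior peak (77%).

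A test per gene was run with limma on log2(FPKM + 0.1), where a gene was called at a Benjamini–Hochberg adjusted P under 0.01 and a fold change of at least 1.5. It covered the 19518 entries whose FPKM averaged 1 or more over the mRNA and polysome libraries. Of the 100 genes 92 entered it, and 61 were lower in polysome RNA, where 22.2% of all entries were called lower. Another 2 were higher (21.1% of all entries) and 29 were not called. The median log2 difference was -1.47 for the long genes and -0.16 for the other expressed genes. The 8 genes left out were too scarce, with mRNA FPKM of 1.07 to 1.80. All 8 had both polysome values below both mRNA values, but this adds no support. With mRNA at 1 FPKM or more, only a mean polysome FPKM under 1 could bring a gene below the filter. A further 26 entered the fit only through their mRNA values, of which 22 were called lower. Among the 66 genes with a mean polysome FPKM of at least 1, a split chosen after seeing the data, 39 were lower (19.2% of all expressed genes with that polysome level), 2 higher (23.2%), and 25 not called. With libraries centred on their median, 50 genes were lower (17.2% of all entries) and 2 higher (26.8%). With ENSRNA entries left out, 79 were lower (44.3%) and 1 higher (9.53%). The number lower was 35 without mRNA replicate 1 (11.4% of all entries), 40 without mRNA replicate 2 (9.44%), 36 without polysome replicate 1 (10.5%), and 46 without polysome replicate 2 (14.7%). Leaving out any library left 1 gene higher (13.9 to 14.8% of all entries), with the lone library assumed to vary like the other kind.

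The largest log2 difference was that of Zm00001d053826, on the plus strand at chr4:241891771-241932626. It had 5.02 and 4.67 FPKM as mRNA and 0.263 and 0.124 FPKM on polysomes, a log2 difference of -4.12 ± 0.32 (SE) with an adjusted P of 0.000253 (limma). Its ratio of 0.0399 was the lowest of the 100 genes. Zm00001d047074 had 4.17 and 5.94 FPKM as mRNA and 0.503 and 0.498 on polysomes, a log2 difference of -3.08 ± 0.26 (SE). Both genes are among the 26 that entered the fit only through their mRNA values, and their differences depend on the pseudocount, as with 1 in place of 0.1 they were -2.29 and -1.997. The other 3 genes with the largest decreases had higher mRNA FPKM, and polysome FPKM of 1.45 to 3.34. They were picked by the size of the decrease, so they say nothing of the other long genes. Zm00001d023792 had 20.3 and 24.6 FPKM as mRNA and 3.34 and 2.49 on polysomes (log2 difference -2.91). Zm00001d018423 had 13.2 and 16.9 against 1.87 and 2.16 (-2.83), and Zm00001d037401 had 10.99 and 10.6 against 1.45 and 1.54 (-2.78). With a pseudocount of 1, Zm00001d023792 and Zm00001d018423 had the larger differences, -2.59 and -2.40, so the order of these genes turns with that choice. Polysome and mRNA values did not overlap in any of these 5 genes, and each kept its call without any single library.

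The exception in the other direction was Zm00001d018704, on the plus strand at chr7:2767046-2847029, which had 13.2 and 12.01 FPKM as mRNA and 32.2 and 31.6 on polysomes. Its log2 difference was 1.33 ± 0.13 (SE, adjusted P of 0.000485 by limma), and its ratio of 2.53 was the highest of the 100 genes. Zm00001d004463 had 7.40 and 7.73 FPKM as mRNA and 13.8 and 15.0 on polysomes, a log2 difference of 0.92 ± 0.14 (SE, adjusted P of 0.0024 by limma). This call was lost when any single library was left out (adjusted P of 0.0103 to 0.0186), with log2 differences of 0.86 to 0.98. With ENSRNA entries left out, the log2 difference was 0.26 for Zm00001d004463 (adjusted P of 0.201) and 0.67 for Zm00001d018704, which kept its call. Among the longest genes, Zm00001d016863 was not called, with 4.16 and 3.70 FPKM as mRNA and 2.998 and 3.71 on polysomes, and neither was the abundant Zm00001d028915 (log2 difference -0.64, adjusted P of 0.0125). With ENSRNA entries left out both were called lower, with log2 differences of -0.89 and -1.31 (adjusted P of 0.00928 and 0.000747).

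m6A peaks are regions where immunoprecipitated signal exceeds the input, called in each replicate separately. Fold enrichment is the ratio that the peak calling of the authors gave for each peak, with the input as control. A high-confidence peak is here a replicate 1 peak that overlaps a replicate 2 peak by at least 1 bp. Of the 100 genes 93 were overlapped by such a peak, compared with 53.2% of all expressed genes. At least 2 peaks were found in 74 genes (7.37% of all expressed genes) and at least 5 in 45 (1.15%). The next classes by span were alike, with a peak in 99% of the genes ranked 101 to 200 and 95% of those ranked 201 to 500, and at least 2 peaks in 67.0 and 55.7%. The 100 genes held 586 peaks, or 5.86 per gene, against 0.666 per gene in the other expressed genes. The counts were uneven, with 7 genes without a peak, 19 with 1, 29 with 2 to 4, 23 with 5 to 9, and 22 with 10 or more. A longer span offers more room for peaks, so these counts are read together with their place and their density below.

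The peaks were sorted into kinds by place with a fixed limit of 500 bp. A 3′ end peak has its summit inside the span and within 500 bp of the annotated 3′ end, and an interior peak has it more than 500 bp from both ends. A 3′ end peak was found in 76 of the 100 genes, compared with 47.9% of all expressed genes and 84.0% of the genes ranked 101 to 200. These 77 peaks had a median distance of 198 bp to the 3′ end (159 bp in the other expressed genes). The 3′ end of these very long genes was thus marked about as often as in the genes ranked 1001 to 2000 by span, where the share was 77.6%. A single peak lay at a 5′ end, 236 bp from the start of Zm00001d049894, with fold enrichments of 3.53 and 2.48. The single peak of Zm00001d052445, named after its values were seen, had its summit 45 bp beyond the annotated 3′ end and belongs to no kind.

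The remaining 507 summits were interior and belonged to 77 genes, whereas 9.84% of all expressed genes had an interior peak. Interior summits made up 86.7% of the 585 summits inside the long genes and 25.2% of those inside the other expressed genes. Conversely the last 10% of the span held 16.2% of the summits (95 of 585), against 72.3% in the other expressed genes. The exact 95% binomial interval of 13.3 to 19.5% is for counting error only. It takes summits as independent, though those of a gene came in groups. With median spans of 48637.5 and 3582 bp, the last 10% is a far longer stretch in the long genes. A short gene also has little or no room for an interior summit. The median distance of a summit to the 3′ end was 22291 bp. Both kinds of peak occurred together in 61 genes, 15 had a 3′ end peak only, 16 had interior peaks only, and 8 had neither, Zm00001d052445 among them. In the 16 genes with interior peaks only, the summit nearest to the 3′ end lay 507 to 54274 bp away. Some lay just past the limit of 500 bp, at 507, 599, 649, and 650 bp, so this class depends on that limit. The share of genes with an interior peak stepped from 1.32% for ranks 10001 to 18695 to 32.9% for ranks 1001 to 2000 and 69.0% for ranks 101 to 200.

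**Figure D3:**
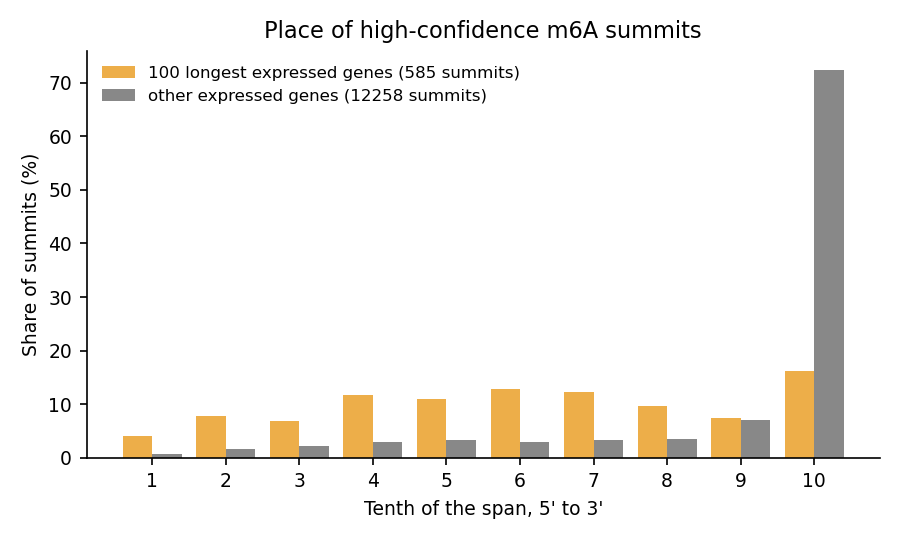
Share of high-confidence m6A summits in 10 equal bins of the span from 5′ to 3′, for the 100 longest expressed genes and for the other expressed genes. The last bin holds 16.2% of the summits of the long genes and 72.3% of those of the others.

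Interior peaks were spread along the span and tended to come in groups. In the 10 bins from 5′ to 3′ they numbered 23, 46, 40, 69, 64, 75, 72, 57, 43, and 18, so the middle 60% of the span held 377 of 507 (74.4%). Neighbouring interior summits of a gene were a median of 896 bp apart, and 230 of 430 such gaps were under 1 kb. Few genes carried most of them, as 20 genes held 301 interior peaks (59.4%). Exons and introns were not separated, since gene models with exons were not used here.

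**Figure D4:**
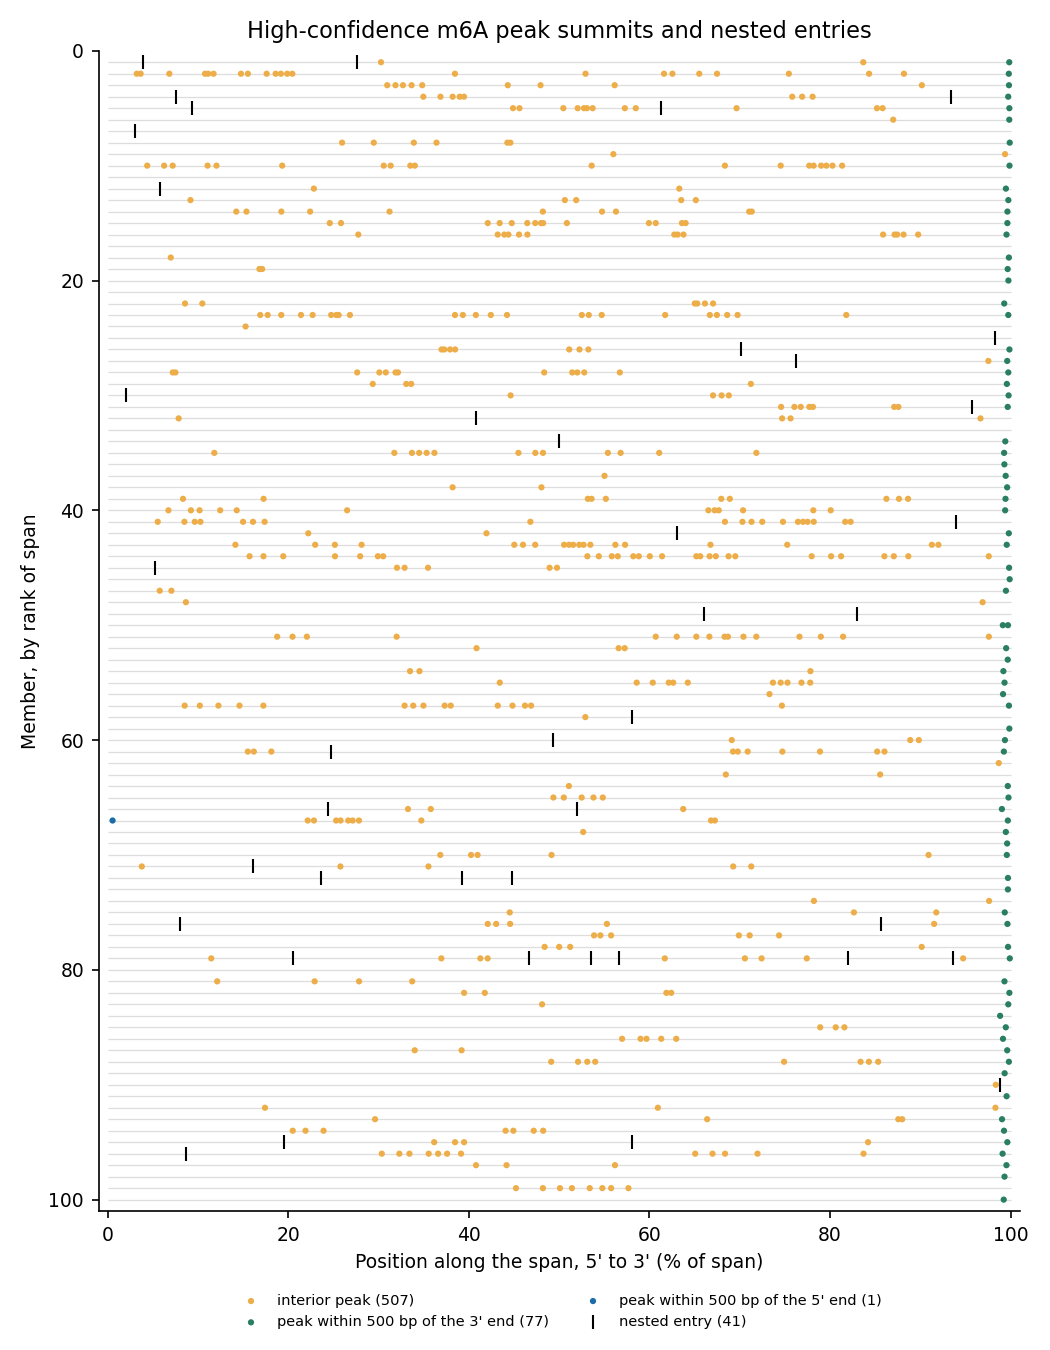
Position of each high-confidence m6A summit along the span (horizontal, percentage from 5′ to 3′) in the 100 longest expressed genes, ordered by span (vertical, rank 1 at the top), with the midpoints of nested entries as black ticks. The 77 summits near the 3′ end form a column at the right edge. The 507 interior summits lie in 77 genes, with 301 of them in 20 genes.

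Among genes of this span, the density of interior peaks was higher where mRNA FPKM was higher. It was 9.60 per 100 kb in the long genes, 8.80 for ranks 101 to 200, and 7.61 for ranks 201 to 500, so the 100 longest stood little above their neighbours in span. It was 4.98 in other expressed genes over 5 kb, and 0.144 in sequence outside all listed entries. In the 63 Zm00001d genes of the same span that missed the mRNA floor it was 0.993, and in the 29 of these listed at 0 in both mRNA libraries 0.595. Within the long genes it was 6.61 per 100 kb below a mean mRNA FPKM of 3, 8.24 from 3 to 6, and 14.1 at 6 or more. Interior peaks were therefore denser in the more abundant of the long genes, and the part of read depth, on which peak calling rests, was not tested. Over all 18695 expressed genes, mean mRNA FPKM and the number of interior peaks had a Spearman rho of -0.03.

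Interior and 3′ end peaks also differed in replicate 1 fold enrichment and in the share of replicate 2 peaks that overlapped a replicate 1 peak. In replicate 1 the median fold enrichment was 9.47 for the 3′ end peaks and 6.15 for the interior peaks of the long genes, whereas the replicate 2 peaks overlapping them had 9.82 and 8.78. In the 61 genes with both kinds, the 3′ end peak was above the median of the interior peaks in 51 genes in replicate 1 but in 30 in replicate 2, and in 27 in both. The replicates are not measured alike here, since the replicate 2 value is the highest among the overlapping peaks. Only replicate 2 peaks that overlap a replicate 1 peak enter it, a minority of its interior peaks as given below. No difference between the replicates is therefore drawn from these counts. Interior peaks were narrower, with a median of 127 bp against 269 bp, and their median −log10 q was 5.88 against 31.8. Of the replicate 2 peaks in the long genes, 34.3% of 1443 interior ones overlapped a replicate 1 peak, compared with 90.9% of 88 at the 3′ end. The other expressed genes were alike, with 38.4% of 7895 interior and 85.6% of 10815 3′ end peaks. Replicate 1 had fewer interior peaks in the long genes, 521, of which 97.3% overlapped a replicate 2 peak, as did 100% of its 77 3′ end peaks.

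**Figure D5:**
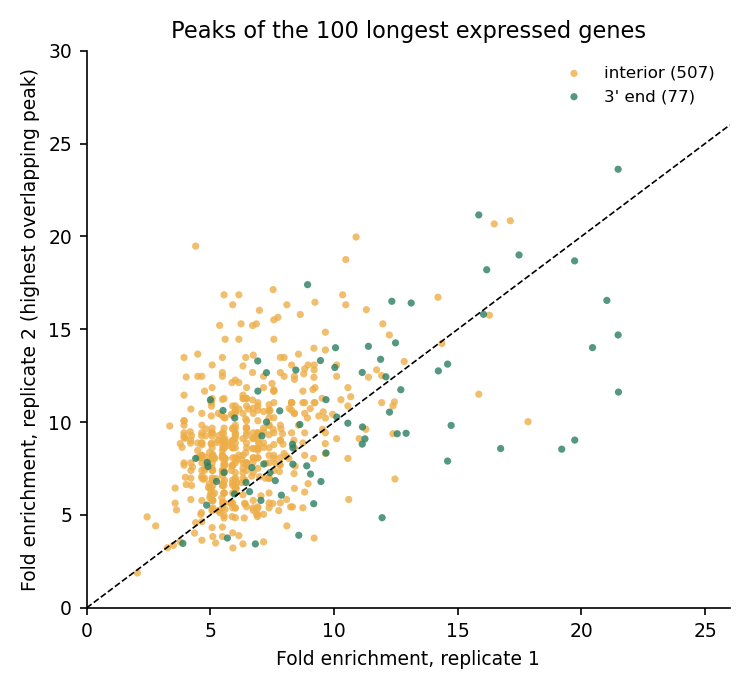
Fold enrichment of each high-confidence peak of the 100 longest expressed genes in replicate 1 (horizontal) and of the strongest replicate 2 peak overlapping it (vertical), for 507 interior and 77 3′ end peaks. The dashed line marks equal values, and interior peaks lie mostly above it (medians of 6.15 and 8.78) while 3′ end peaks scatter around it (9.47 and 9.82).

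Many interior peaks shared exactly the same fold enrichment. Values held by at least 20 replicate 1 peaks accounted for 380 of the 507 interior peaks of the long genes (74.95%) and for 4 of their 77 3′ end peaks. In the other expressed genes they accounted for 42.1% of the interior and 14.4% of the 3′ end peaks. The value 5.55, for example, was held by 25 interior peaks of the long genes and by 175 replicate 1 peaks in all. Differences among such peaks are therefore not resolved by fold enrichment.

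Zm00001d030282, on the minus strand at chr1:118828597-118879142, held 28 peaks, the most of all expressed genes. All were interior, from 15.7 to 97.6% of the span, with replicate 1 fold enrichments between 2.05 and 11.97. It had 16.2 and 13.4 FPKM as mRNA and 6.34 and 5.92 on polysomes. Zm00001d041880 held 24 peaks, Zm00001d015890 held 23, and Zm00001d038093 and Zm00001d027665 held 20 each, with a 3′ end peak in each of these 4 genes. Their polysome to mRNA ratios were 0.468, 0.501, 0.425, and 0.268. Zm00001d015890, the second longest gene, carried summits from 3.22% of its span to 190 bp before its 3′ end. Genes with many peaks thus included genes both above and below the median ratio of the 100.

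The highest m6A level, the mean over replicates of the strongest peak of a gene, was that of Zm00001d003655, with 21.5 in replicate 1 and 23.6 in replicate 2 at a summit 235 bp from its 3′ end. Zm00001d043305 followed with 19.7 and 18.7, also at its 3′ end, 170 bp away. The third, Zm00001d015754, had 17.1 and 20.8 at chr5:116649700-116649886, whose summit lay 1929 bp before the annotated 3′ end and so counted as interior. Its mRNA FPKM was 1.9995 and 1.76. Among long genes with a peak, the scarcer ones had the higher m6A levels. The median level was 13.9 below a mean mRNA FPKM of 3, 11.6 from 3 to 6, and 10.2 at 6 or more. The cause was not tested. The median m6A level over genes with a peak was 11.7 for the long genes and 6.97 for the other expressed genes. This is a maximum over more peaks in the long genes, and it was 11.8 for ranks 101 to 200.

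Zm00001d037536 was the single gene whose summits all lay before the midpoint of the span. Its only peak, at 15.3% of the 64056 bp span and 54274 bp from the 3′ end, had fold enrichments of 10.7 and 11.4. Its mRNA FPKM was 5.69 and 6.23 and its polysome FPKM 5.57 and 4.10, and it was not called. The 7 genes without a peak spanned the range of ratios. They included Zm00001d053826 with the lowest ratio, Zm00001d018704 with the highest, and Zm00001d016863, the seventh longest gene. Of the other 4, which are named for this count, Zm00001d026127, Zm00001d004154, and Zm00001d035089 had mRNA FPKM of 1.07 to 1.80, and Zm00001d006475 had 12.7 and 13.2.

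Within the long genes the polysome to mRNA ratio showed no step with the number of interior peaks. The median ratio was 0.335 with 0 or 1 interior peaks (n = 35), 0.318 with 2 to 4 (n = 27), 0.298 with 5 to 9 (n = 18), and 0.363 with 10 or more (n = 20). The Spearman rho was 0.04, and 0.09 and 0.02 by replicate. With mean mRNA FPKM the number of interior peaks had a rho of 0.31 in the 100 genes, and of -0.03 over all expressed genes. All of these describe genes of the same libraries.

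Other annotated entries lay wholly inside 27 of the 100 genes, compared with 4.23% of all expressed genes and 26 of the genes ranked 101 to 200. There were 41 nested entries, 18 on the strand of the long gene and 23 on the opposite strand, of which 40 were Zm00001d genes and 1 an ENSRNA entry. They measured 71 to 20186 bp, and 13 of them, in 12 genes, measured 71 to 74 bp. A single nested entry was found in 18 genes and 2 in 7 genes. Zm00001d041693 held 3, and Zm00001d030920, at chr1:167480539-167521571, held 6. The median ratio was 0.326 for genes with a nested entry and 0.327 for those without.

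Nearly all nested entries were listed below 1 FPKM in all libraries. Of the 41, 15 were listed at 0 in all libraries, 23 were above 0 in some library but below 1 in all, and 3 reached 1 FPKM in both mRNA libraries. Among all 45578 listed entries, 28909 and 29535 were above 0 in the mRNA libraries, and 19714 and 19991 reached 1 FPKM. In the polysome libraries 29069 and 28460 were above 0, and 17938 and 18323 reached 1 FPKM. Many entries of any kind were thus at 0 or below 1 FPKM. Neither the 15 nor the 23 are read as a trait of nested entries, as the share of all entries below 1 FPKM in every library was not counted. The 3 expressed ones lay on the strand opposite to the long gene. Zm00001d016864, of 204 bp within Zm00001d016863, had 86.9 and 94.5 FPKM as mRNA and 303 and 228 on polysomes, far above the 4.16 and 3.70 of the gene around it. Zm00001d033156, of 529 bp within Zm00001d033155, had 1.46 and 8.30 as mRNA and 41.6 and 32.4 on polysomes, so its mRNA replicates differed widely. Zm00001d035184, of 3095 bp within Zm00001d035183, had 2.34 and 2.23 as mRNA and 0.632 and 0.930 on polysomes. Next by mRNA came Zm00001d030924 and Zm00001d030921, both of 246 bp within Zm00001d030920, with mean FPKM of 0.682 and 0.385 and listed at 0 in both polysome libraries. Strand was not stated to be used in counting, so reads of a nested entry and of the gene around it cannot be told apart.

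Of the 41 nested entries 4 were overlapped, by 5 peaks in all, and of the 586 peaks of the long genes 7 overlapped any other entry. The share of nested entries with a peak was not compared with other sequence of the same length. Zm00001d030920, with its 6 nested entries, held 10 peaks, 9 of them interior, and had 2.12 and 2.99 FPKM as mRNA and 1.97 and 1.52 on polysomes.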

How the data were processed

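According to the processing notes, the authors used Trimmomatic 0.35 for trimming and HISAT2 2.1.0 for mapping to B73 RefGen_v4, and they deposited FPKM values per gene estimated with StringTie. Reads of both parental alleles were mapped to the B73 genome. The authors called m6A peaks with MACS2 per replicate at q under 0.01 with the input as control, and deposited for each peak a fold enrichment ratio, −log10 P and −log10 q values, and a score (10 times the −log10 q, cut to an integer). FPKM hold no counts, so sequencing depth is unknown and precision is given by the spread of 2 replicates.

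The per-gene test was limma 3.58.1 (lmFit, eBayes with trend; R 4.3.3) of polysome against mRNA on log2(FPKM + 0.1), which understates changes of scarce genes. The step was tested on simulated data. Other values were computed with Python 3.11.15, numpy 2.4.6, pandas 2.3.3, and scipy 1.17.1, and figures were drawn with matplotlib 3.10.9. Replicate libraries of a kind held different values for all 100 genes. The 100 genes, the measures, and the lists were chosen with earlier results of these data known, and no test was made over the list. P-values measure the spread between the libraries, with 2 biological replicates of each kind.

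Genes named in the text were the 10 longest, the 5 with the highest mRNA FPKM, the 5 with the largest change each way past the threshold, the 5 with most peaks, the 3 with the highest m6A level, up to 5 with all summits before the midpoint, the 5 with most nested entries, the 3 on each side of the span limit, and the 5 nested entries with the highest mRNA FPKM. Alternatives covered the pseudocount, filters, scaling, pairing, peak overlap and threshold, the set of genes, and leaving out each library.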

Additional observations from a re-analysis of the deposited data

How the results depend on the processing

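With no filter on low FPKM, limma called 0 long genes lower and 0 higher, although 81 of the 100 had an unadjusted P under 0.05, and of all 45578 entries 1 was lower and 3 were higher. With ENSRNA entries left out 1 long gene was higher, and 8471 entries were lower and 1820 higher in all, against 4340 and 4124. Without each library in turn, 35 to 46 long genes were lower and 1 was higher, and 1843 to 2864 entries were lower and 2704 to 2893 higher in all. Counted after seeing the data only where mean polysome FPKM was at least 1, 39 were lower. The replicate block gave 60 lower and 2 higher. Deviations of same-numbered mRNA and polysome libraries had a correlation of 0.016. Whether same-numbered libraries came from the same plants is not stated, and this value cannot decide it.

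The median ratio was 0.354 from replicate 2 only, 0.383 with centred libraries, 0.206 without ENSRNA entries, 0.409 for genes with a mean polysome FPKM of at least 1, and 0.413 for the 200 longest genes, and it was 2.11-fold to 2.80-fold below that of the other expressed genes across the alternatives, where the rescalings can hardly move it. The share of summits in the last 10% of the span was 24.7% with an overlap of at least 50%, 24.3% at q of at most 1e-05, 10.2% from all replicate 2 peaks, 13.1% in the 50 longest, and 21.3% in the 200 longest genes. Genes with a nested entry numbered 3 when only expressed entries were counted, 15 on the own strand, and 17 on the opposite strand. The median mRNA FPKM was 4.53 from replicate 1 and 9.44 without ENSRNA entries. A floor on mean mRNA FPKM kept 97 of the 100 genes. Of 290 alternative values for named genes, 230 kept their call and 0 changed sign. The cause of these shifts was not tested.

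Limits are the 2 replicates, the unknown depth, FPKM without strand, and gene models whose exons and transcript lengths were not used, so that intronic and exonic peaks cannot be told apart.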
